A study of Mus musculus with 24 samples.

Results

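The interferon and antigen presentation genes are 38 mouse genes that cells switch on, or that they use to display peptides to T cells, when a virus or another pathogen is met. They were listed by name as a view on the response of the liver to an adeno-associated virus (AAV) vector, and are 38 of the 56748 genes annotated in the study. By role they are 4 transcription factors, 15 antiviral effectors or regulators, 4 interferon-inducible GTPases, 10 genes of class I presentation and 5 genes of class II presentation. Their measurements came from livers of 24 mice in 4 groups of 6, with 3 males and 3 females in each. GHR+/+ mice have an intact growth hormone receptor gene. GHR-/- (Laron) mice carry a disrupted receptor gene and do not respond to growth hormone. The groups named AAV-HLP-mGHR and, as the control for it, AAV-HLP-Luc were GHR-/- mice injected into the peritoneum at 4 to 5 weeks of age with 4E10 vector genomes of a single-stranded AAV of serotype 8 that carried the mouse receptor or luciferase. In both vectors the cargo was driven by HLP, a promoter active in hepatocytes, so the restored receptor was limited to the liver. Livers of these mice were taken 25 to 26 weeks later, at an age of 30 to 31 weeks, and those of the GHR+/+ and GHR-/- mice, which received no vector, at 21 weeks. Injection and age therefore cannot be told apart wherever an injected group was set against an uninjected one.

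Interferons are secreted proteins that act on neighbouring cells. Type I interferons (alpha and beta) act through a complex that contains Stat2 and Irf9 and binds interferon-stimulated response elements, whereas type II interferon (gamma) acts through dimers that bind gamma-activated sites and through Irf1. The genes switched on include RNA sensors such as Ifih1, effectors such as the Ifit, Oas and Mx proteins, and the class I pathway. In that pathway the immunoproteasome subunits Psmb8, Psmb9 and Psmb10 cut proteins into peptides, Tap1 and Tap2 carry the peptides into the endoplasmic reticulum, and Tapbp (tapasin) loads them onto H2-K1 or H2-D1 paired with B2m. Class II molecules (H2-Aa, H2-Ab1 and H2-Eb1, escorted by the invariant chain Cd74) are made mainly by dendritic cells, B cells and macrophages and are controlled by Ciita, and Nlrc5 is its counterpart for class I.

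Promoter sequences of 5 members are shown because these members stood at opposite ends of the comparisons below. Bst2 and Oas1a were on the GHR+/+ side, and Igtp, H2-Aa and H2-Eb1 on the GHR-/- side. The sequences are from RefSeq on GRCm38.p6, read 5′ to 3′ on the strand of the gene, and their places are given on GRCm39 from exact matches. Capitals mark 3 motifs, searched on both strands: the core of an interferon-stimulated response element (GAAA repeated after any 2 bases), TTCNNNGAA, the form of a gamma-activated site, and CCAAT, part of the class II promoter module. Motifs that overlap run together in capitals. The Bst2 stretch lies at chr8:71990117-71990366 on the minus strand and ends at the RefSeq start of the gene. The Oas1a stretch lies at chr5:121045589-121045838 on the minus strand. It is within a longer GENCODE model of Oas1a, with 22 exonic bases, and overlaps Oas1d. The Igtp stretch, at chr11:58090332-58090361 on the plus strand, is the 30 bases that hold its motifs and is exonic in a longer GENCODE model. The H2-Aa stretch lies at chr17:34506798-34507047 on the minus strand, and a longer GENCODE model of H2-Eb1 overlaps it. The H2-Eb1 stretch, at chr17:34524781-34524810 on the plus strand, is the 30 bases between its motifs and lies within an intron of a longer GENCODE model.
Bst2: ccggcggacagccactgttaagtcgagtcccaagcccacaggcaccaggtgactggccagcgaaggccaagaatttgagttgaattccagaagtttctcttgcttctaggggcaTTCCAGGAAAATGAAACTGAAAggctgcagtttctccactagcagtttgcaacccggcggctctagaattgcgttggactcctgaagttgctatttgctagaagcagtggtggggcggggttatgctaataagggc
Oas1a: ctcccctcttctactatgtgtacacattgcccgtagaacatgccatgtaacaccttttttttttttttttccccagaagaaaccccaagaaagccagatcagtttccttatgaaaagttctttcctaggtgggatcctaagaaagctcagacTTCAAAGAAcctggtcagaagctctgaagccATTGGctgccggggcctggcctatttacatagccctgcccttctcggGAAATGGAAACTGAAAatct
Igtp: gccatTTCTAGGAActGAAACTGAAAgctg
H2-Aa: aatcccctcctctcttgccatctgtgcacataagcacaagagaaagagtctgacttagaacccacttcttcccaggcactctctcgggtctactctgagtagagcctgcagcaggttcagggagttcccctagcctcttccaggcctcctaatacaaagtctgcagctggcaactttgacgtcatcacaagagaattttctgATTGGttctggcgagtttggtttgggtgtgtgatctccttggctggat
H2-Eb1: gATTGGctcccagcactggccttacCCAAT

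In Bst2 the gamma-activated form overlapped a pair of overlapping response elements, the outermost from 130 to 121 bases before the start. In Oas1a the response elements lay from 20 to 11 and from 14 to 5 bases before the RefSeq start. The response element core was present in 12 of the 30 members with a RefSeq promoter (40%; B2m, Bst2, Gbp2, Gbp3, Ifit1, Ifit3, Igtp, Irgm1, Isg15, Oas1a, Rsad2 and Stat2), against 2.98% of all 32851 promoters. TTCNNNGAA was present in 6 (20%; Bst2, Ifit2, Igtp, Irf1, Oas1a and Psmb8) against 7.02% of all promoters, and CCAAT in 15 (50%) against 33.8%. Members were counted by gene, whereas the background was counted by promoter. A match is a run of letters and no measurement of binding. Cd74, Ciita, H2-Ab1, Mx1, Mx2, Nlrc5, Tap2 and Usp18 had no entry.

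Read counts per mouse were in hand for 1999 abundant genes, 6 of them members: B2m, H2-K1, H2-D1, Cd74, Tapbp and Bst2. The other 32 members were followed through gene set tables of 9 comparisons, as described below. The 24 libraries held 26453904 to 38194053 reads over these genes. Counts below are scaled to a common library size (normalised counts), and compare mice for 1 gene, not genes with each other. The targeted gene, Ghr, had a median of 22417 normalised counts in GHR+/+ mice (range 18658 to 27548), 2368.8 in GHR-/- mice (2051.5 to 2653.4), 2767.4 in AAV-HLP-Luc mice (1415.7 to 3255.6) and 4135.3 in AAV-HLP-mGHR mice (2614.1 to 4966.3). Of 5 hepatocyte markers, 4 were among the abundant genes. Whole liver was sequenced, so fewer cells of a type and less RNA per cell cannot be told apart in any value below. One mouse, AAV-HLP-mGHR female 024, was the highest of its group for 6 of 6 members with counts, whereas it was the highest for 21.9% of all 1999 genes. It was also the highest for 5 of 6 further interferon-stimulated genes and for 3 of 3 Kupffer cell markers in the table, and counts are given with and without it where it moves a value. The gene set tables were made with all mice, so their values cannot be given without it.

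The comparison of AAV-HLP-Luc with GHR-/- mice asks what the vector itself left behind in liver that lacks the receptor. No member passed the test: 0 of 6 members with counts and 0 of 1998 genes (0%) had an adjusted p under 0.05 with limma, and limma-trend also called 0 genes. Within males and within females it was likewise 0 of 6 members and 0% of all genes with limma. Of the 32 further pathway genes with counts (interferon signalling, sensors, class I and class II processing), 0 passed. At an unadjusted p under 0.05, 69 of the 1998 genes and 0 of the 6 members passed. Bst2 (tetherin, which holds budding viruses at the cell surface; chr8:71986895-71990114, minus strand, GRCm39) had a median of 2909.2 normalised counts in AAV-HLP-Luc mice (range 2736.0 to 3711.3) and 3474.5 in GHR-/- mice (2952.0 to 4508.8). The groups overlapped, and the log2 difference was -0.21 ± 0.11 (SE, n = 6 against 6; limma adjusted p = 0.952). Its 95% interval, -0.45 to 0.03, corresponds to 0.732- to 1.02-fold, so a rise of Bst2 above 1.02-fold lay outside it.

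The class I genes were close between AAV-HLP-Luc and GHR-/- mice. B2m, the light chain shared by class I molecules, had medians of 48712 (39661 to 55392) and 57164 (37556 to 65532) normalised counts, with a log2 difference of -0.15 (95% interval -0.46 to 0.17). H2-K1, a class I heavy chain, had medians of 47863 (33645 to 56121) and 53604 (41242 to 61685), with a difference of -0.18 (-0.49 to 0.13). The groups overlapped for both. The other heavy chain, H2-D1, had medians of 29032 (21022 to 33477) and 26642 (22619 to 34022), with a difference of 0.03 (-0.25 to 0.31). H2-K1 and H2-D1 are near-identical to each other and to H2-Q10 over much of their length, so reads may have been divided between them and their values are uncertain. Tapbp had medians of 4680.8 (3373.5 to 5553.9) and 4225.4 (3441.7 to 5906.8) and a difference of -0.01 (-0.35 to 0.34).

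The class II escort Cd74 varied most among mice. It had a median of 8746.6 normalised counts in AAV-HLP-Luc mice (4251.1 to 11542) and 7056.8 in GHR-/- mice (5271.9 to 15768). The ranges overlapped almost entirely, and the log2 difference of 0.02 had a 95% interval of -0.60 to 0.64, or 0.661- to 1.56-fold. For Cd74, then, a change of 1.5-fold in either direction could not be told from none with these mice.

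**Figure D1:**
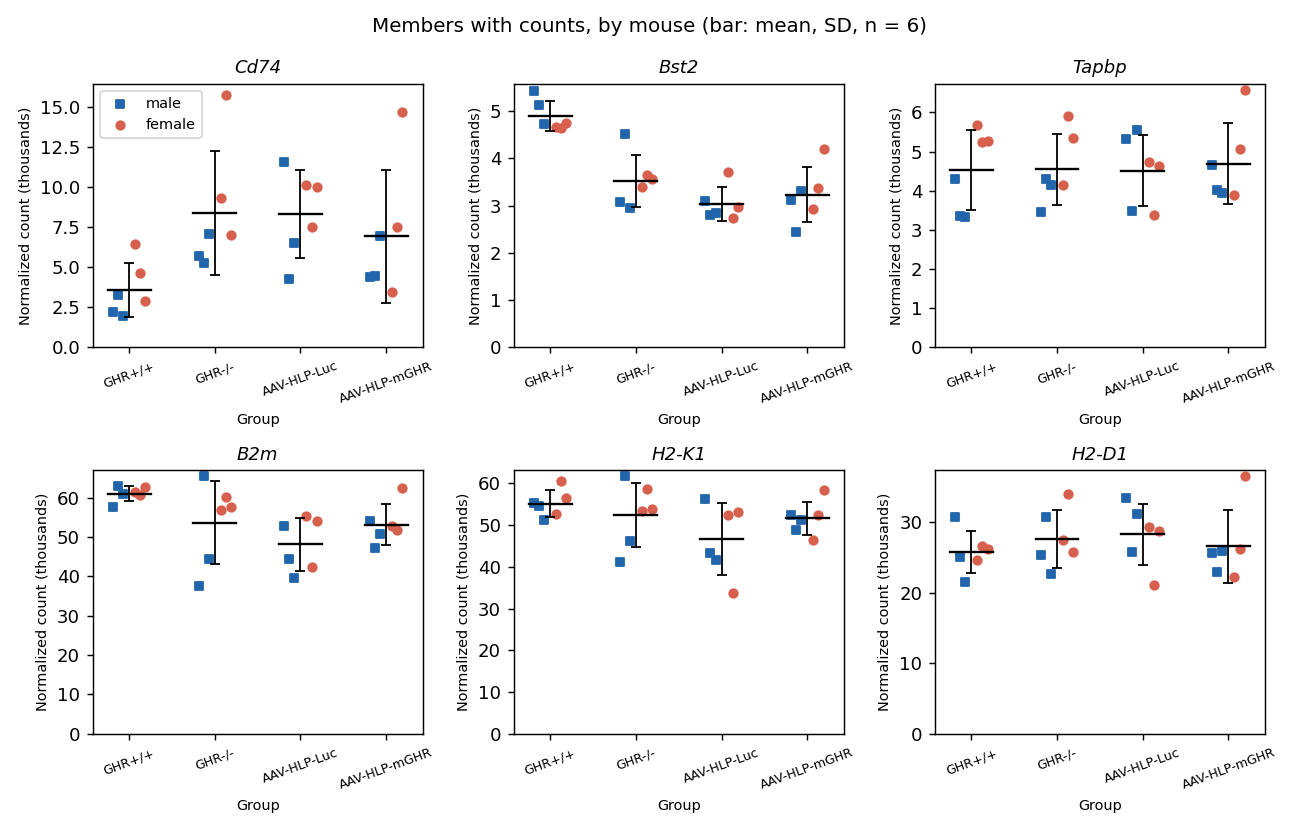
Normalised counts of the 6 members with counts, 1 panel each, in the 4 groups (squares males, circles females; bar the mean, error bar the SD, n = 6 mice). The 6 GHR+/+ mice sit above all other mice for Bst2, from 4647.5 to 5435.3, while for Cd74 their mean of 3565 is below those of the other groups and mouse spread is wide. Luc and mGHR stand for AAV-HLP-Luc and AAV-HLP-mGHR.

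The deposited gene set tables gave the same comparison for the sets as wholes. For each Gene Ontology (GO) set they hold a normalized enrichment score (NES, positive where the genes of the set lay toward the top of the ranking, that is higher in the group named first) and the genes of its leading edge, those that carried the score. Of the 51 sets with interferon or antigen processing in the name, 0 had a deposited adjusted p under 0.05, whereas over all GO sets 1.04% were past it on the higher side and 0.75% on the lower. Their NES ran from -1.67 (negative regulation of interferon-beta production) to 1.56 (T cell antigen processing), and the lowest adjusted p was 0.191. At an unadjusted p under 0.05 the counts were 1 higher and 2 lower. The response to interferon-beta had an NES of -1.11 (deposited adjusted p = 0.599), the response to type I interferon -1.06 (0.644) and the response to type II interferon 0.88 (0.86).

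Leading edges placed 5 members on the AAV-HLP-Luc side, 9 on the GHR-/- side, 2 on both and 22 on neither. The leading edge background, here and below, is the 477 genes found in a leading edge of these sets in at least 1 comparison. Of them, 30.8% were on the AAV-HLP-Luc side alone and 18.2% on the GHR-/- side alone. That background leaves out genes in no such leading edge, whereas the members include 9 of those. Shares of the members and of the background therefore have unlike bases. Members most often on the AAV-HLP-Luc side were the transcription factor Irf1 (5 sets), the double-stranded RNA sensor Ifih1 (4) and the transporter subunit Tap2 (3). On the GHR-/- side they were B2m, Irf7, which drives type I interferon genes, and the ubiquitin-like Isg15 (6 sets each), followed by H2-K1 and the RNA-binding Ifit1 (4 each). None of these sets passed, so the sides describe order only.

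Because leading edges are stretches of a single ranking, overlapping ones fix an interval for the place of each gene, given here as a percentage from the top of the genes recovered. The places carry no test. Between AAV-HLP-Luc and GHR-/- mice, 33 members could be placed, 2 in the highest 25% and 8 in the lowest 25%, against 20.3% and 18.3% of all genes placed. The effectors made up 5 of those 8. Usp18, which removes Isg15 from proteins, lay at 91.9% to 98.3% and Bst2 at 90.7% to 97.1%. Isg15 lay at 89.7% to 96.2%, Ifit3 at 85.7% to 92.4% and Ifit1 at 80.8% to 87.4%. These effectors thus stood toward the GHR-/- end, while the antiviral GTPase Mx2, at 0.367% to 4.19%, stood at the AAV-HLP-Luc end. The class II genes H2-Ab1, H2-Eb1 and Cd74 lay near the middle, between 48.1% and 66.5%, the interval of Ciita was too wide to read, and H2-Aa was not placed.

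**Figure D2:**
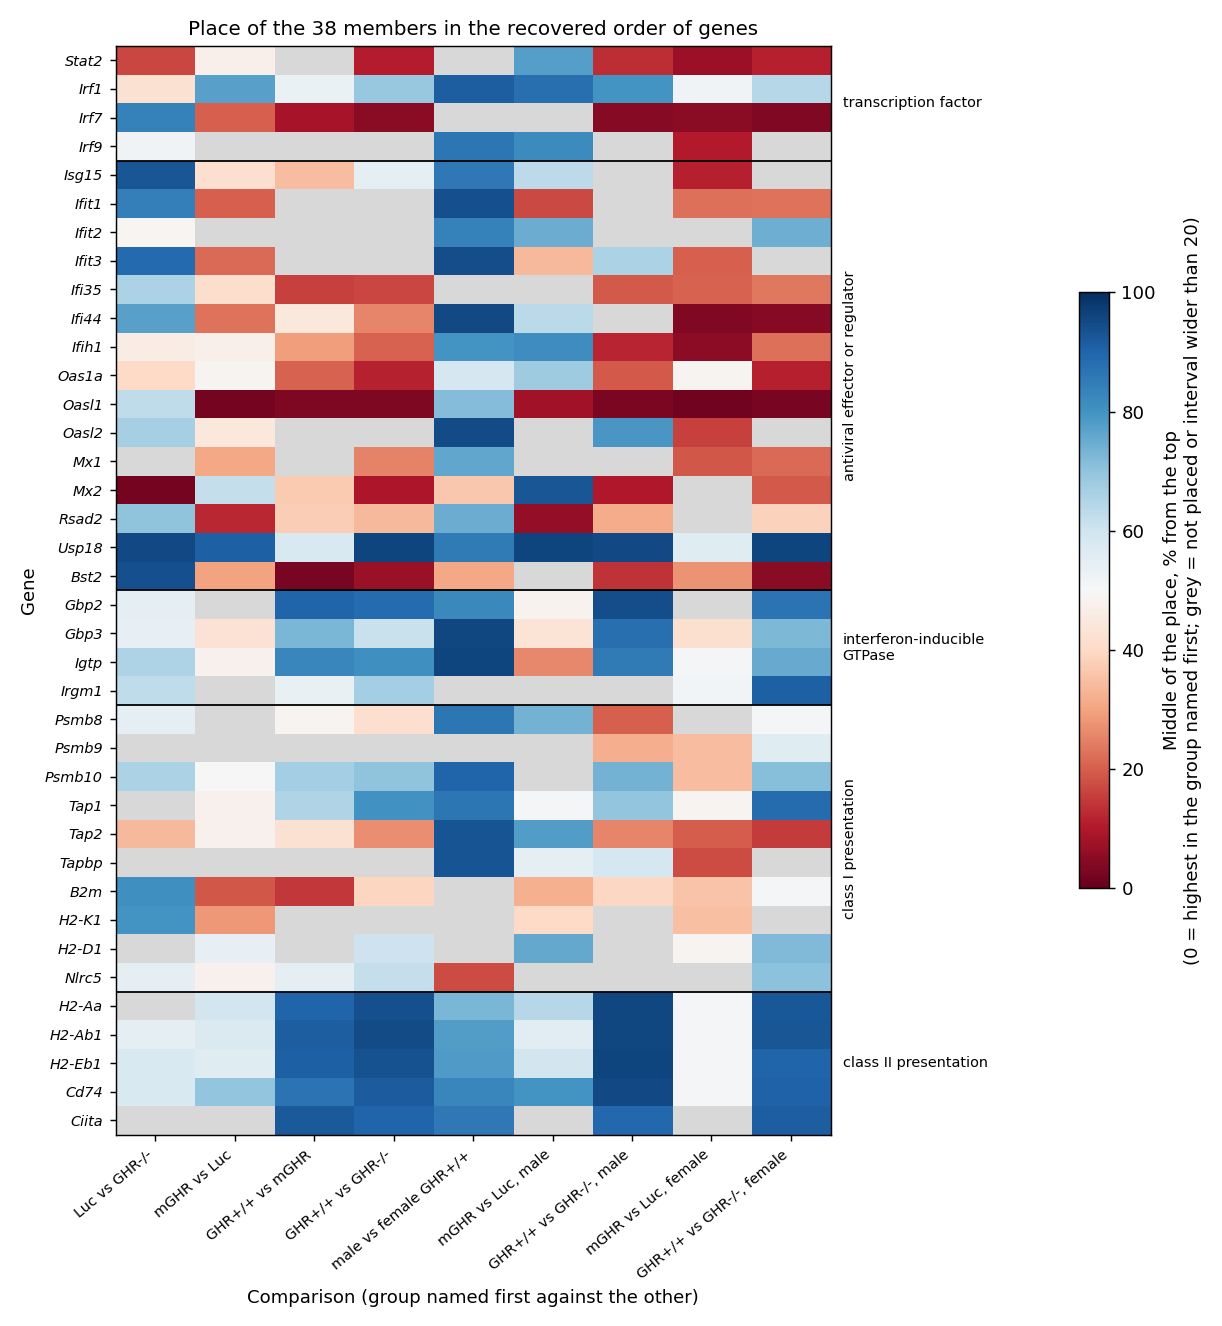
Place of the 38 members (rows, by role) in the recovered ranking of the 9 comparisons (columns). Red marks the top, higher in the group named first, blue the bottom, and grey a member not placed or placed only within more than 20% of the ranking. The class II genes are blue wherever GHR+/+ is set against another group, most effectors are red for the receptor against luciferase in females, and most members are blue for male against female GHR+/+ mice. Luc and mGHR stand for AAV-HLP-Luc and AAV-HLP-mGHR.

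The comparison of AAV-HLP-mGHR with AAV-HLP-Luc mice asks what the receptor added, at equal age and with a vector in both groups. No member with counts passed the test (0 of 6 with limma, and 0 of 6 with limma-trend), while 31 of 1999 genes (1.55%) did. Bst2 had a median of 3221.5 normalised counts with the receptor (2429.3 to 4203.8) against 2909.2 with luciferase, and a log2 difference of 0.08 (95% interval -0.18 to 0.34). The 2 groups overlapped. Cd74 had a median of 5695.5 (3424.8 to 14718) against 8746.6, a difference of -0.37 ± 0.34 (-1.11 to 0.37; limma adjusted p = 0.665). Without AAV-HLP-mGHR female 024, the mouse at 14718, the Cd74 difference was -0.62 with an adjusted p of 0.316 in limma. B2m, H2-K1, H2-D1 and Tapbp differed by 0.15, 0.16, -0.09 and 0.05 on the log2 scale. Against the uninjected GHR-/- mice, the AAV-HLP-mGHR mice likewise had 0 of 6 members called where 2.3% of all genes were, with log2 differences from -0.35 for Cd74 (-1.09 to 0.39) to 0.04. That Cd74 difference was -0.60 without AAV-HLP-mGHR female 024.

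Among the pathway genes around the members, Trim25, a ubiquitin ligase that activates the RNA sensor RIG-I, was the only 1 called with the receptor against luciferase. Of 101 further genes listed for receptors and signalling, sensors, other interferon-stimulated genes, class I loading, the constitutive proteasome and the class II pathway, counts of 32 were in hand. Of these 1, Trim25, passed between mice with the receptor and mice with luciferase, where 1.55% of all genes passed. Its mean was 4252 ± 362 normalised counts (SD, n = 6) with the receptor and 2941 ± 336 with luciferase. The log2 difference was 0.53 ± 0.089 (SE; limma adjusted p = 0.00852). Against GHR-/- mice (3233 ± 376) it was higher by 0.40 ± 0.092 (limma adjusted p = 0.0390), and GHR+/+ mice, at 3517 ± 325, lay below AAV-HLP-mGHR mice by -0.27 (limma adjusted p = 0.0421).

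Of the 50 chosen sets, 0 passed between mice with the receptor and mice with luciferase (1.14% of all GO sets passed higher and 1.78% lower). At an unadjusted p under 0.05 there were 0 higher and 3 lower. The extremes were type II interferon signalling at an NES of -1.63 (deposited adjusted p = 0.177) and the cellular response to interferon-alpha at 1.28 (0.578). The lowest adjusted p was 0.174, for the response to type II interferon (NES -1.41). The leading edges held 12 members on the receptor side, led by Irf7 (9 sets), Isg15 (6), Ifit1, Ifit3 and Nlrc5 (4 each). They held 5 on the luciferase side, led by Cd74 (10), H2-Aa, H2-Ab1 and Irf1 (4 each) and H2-Eb1 (3). The background was 19.9% of 477 genes on the receptor side and 28.7% on the luciferase side. The places put 7 of 34 members in the highest 25% and 1, Usp18 at 87.6% to 93.8%, in the lowest 25%, against 21.3% and 18.7% of all genes placed. Oasl1, which restrains translation of Irf7, lay at 0.765% to 3.37% and the antiviral enzyme Rsad2 (viperin) at 10.8% to 14.0%.

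Within females, more members stood on the receptor side. This group of 3 holds AAV-HLP-mGHR female 024, the highest for 6 of 6 members with counts and for 5 of 6 further interferon-stimulated genes, and its part in the places and leading edges was not tested. By counts, the log2 difference in females was 0.16 for Bst2, 0.28 for Tapbp and 0.14 for B2m with this mouse. Without it, these differences were 0.01, 0.09 and 0.06. H2-K1 (0.20) and H2-D1 (0.09) were also higher with the receptor, whereas Cd74 was lower, at -0.33. Leaving this mouse out put H2-D1 at -0.11 and Cd74 at -0.85. H2-K1 ranged from -0.015 to 0.316 over the fits that left out 1 mouse. By leading edge, Cd74 was still on the receptor side, in 2 sets. Leading edges held 21 of 38 members there and 0 on the luciferase side (background 32.1% and 9.64%), led by Irf7 and Isg15 (10 sets each), B2m (9), H2-K1 and Tap2 (8 each). Of 36 members placed, 14 were in the highest 25% and 0 in the lowest (21% and 18.6% of all genes), and 9 of the 14 were effectors. Oasl1 lay at 0.475% to 3.17%, Ifi44 at 2.41% to 5.32% and Irf7 at 3.39% to 6.31%. The factors Stat2 and Irf9 lay at 5.79% to 8.86% and 8.82% to 12.2%. Of 30 other interferon-stimulated genes placed, 15 were also in the highest 25%. Still, 0 of 50 chosen sets passed (1.74% of all GO sets passed higher and 1.5% lower). The lowest deposited adjusted p was 0.164 and the highest NES 1.61 (adjusted p = 0.267), and 3 sets were higher at an unadjusted p under 0.05.

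Within males, the leading edges held more members on the luciferase side. They held 15 members there and 3 on the receptor side (background 28.9% and 6.08%), led on the luciferase side by Cd74 (12 sets), Irf1 and Tap2 (9 each), Ifih1 and Oas1a (6 each). On the receptor side were Ifit1 (2 sets), Ifit3 and Igtp (1 each). By place, 3 of 34 members were in the highest 25% and 6 in the lowest, against 20.3% and 18.2% of all genes, so neither share stood above the background. Stat2 lay at 74.2% to 81.0%, Irf9 at 78.3% to 85.2%, Irf1 at 84.2% to 91.0% and Usp18 at 92.4% to 99.2%, but Rsad2 lay at 4.49% to 7.91% and Oasl1 at 6.0% to 9.69%. Of 12 Kupffer cell markers placed, 8 were in the lowest 25% in males, against 2 of 5 in females. For general leukocyte markers it was 3 of 6 in males and 1 of 6 in females, and for dendritic cells 3 of 5 and 0 of 3. For B cells it was 0 of 3 and 0 of 4, and for T and natural killer cells 0 of 7 and 2 of 7. The part of these cells in the result was not tested. Again 0 of 50 sets passed (1.34% of all GO sets passed higher and 1.84% lower), with a lowest adjusted p of 0.067 for antigen processing and presentation (NES -1.6) and 10 sets lower at an unadjusted p under 0.05. Whether the sets differed between the sexes was not tested. Among members with counts, 0 of 6 passed in males (0.35% of all genes), 0 of 6 in females (0.45%), and 0 of 6 for the difference between the sexes, where 0% of all genes passed. The largest such difference was for Tapbp, -0.44 (95% interval -1.15 to 0.27).

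**Figure D3:**
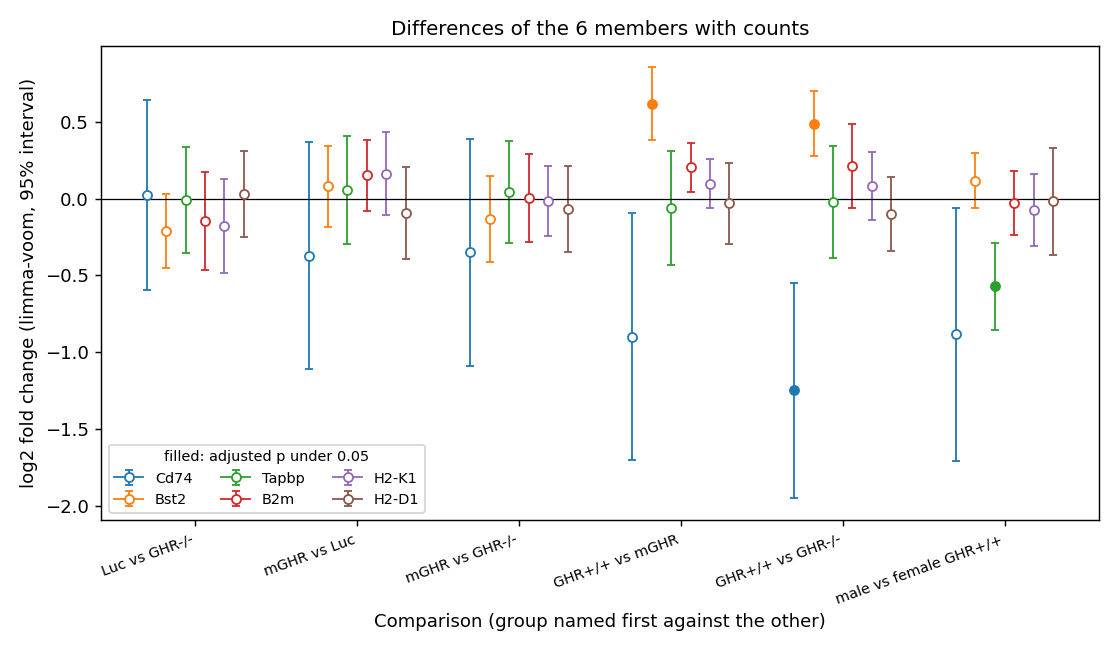
Log2 differences of the 6 members with counts in 6 comparisons, with 95% intervals from limma (filled points, adjusted p under 0.05). Filled points are Bst2 in GHR+/+ against AAV-HLP-mGHR and against GHR-/-, Cd74 in GHR+/+ against GHR-/-, and Tapbp in male against female GHR+/+ mice. Luc and mGHR stand for AAV-HLP-Luc and AAV-HLP-mGHR.

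The comparison of GHR+/+ with GHR-/- mice, of equal age and without a vector, gives the size of the receptor effect on the same genes. Bst2 and Cd74 passed the test in opposite directions, 2 of 6 members where 24.6% of all genes passed. Bst2 had a median of 4735.2 normalised counts in GHR+/+ mice (4647.5 to 5435.3) and 3474.5 in GHR-/- mice (2952.0 to 4508.8). Every GHR+/+ mouse was above every GHR-/- mouse. The log2 difference was 0.49 ± 0.097 (SE; 95% interval 0.28 to 0.70), a 1.40-fold higher level (limma adjusted p = 0.0044). Cd74 had a median of 3072.0 in GHR+/+ mice (1951.4 to 6451.1) and 7056.8 in GHR-/- mice (5271.9 to 15768). Only the highest GHR+/+ mouse, a female, lay within the GHR-/- range. The log2 difference was -1.25 ± 0.32 (-1.95 to -0.55), a 2.38-fold lower level (limma adjusted p = 0.0150). On the scale per transcript length, Cd74 averaged 56.3 FPKM in GHR+/+ and 135 FPKM in GHR-/- mice.

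The class I members did not pass between GHR+/+ and GHR-/- mice. B2m had a median of 61188 normalised counts in GHR+/+ mice (57515 to 62853) against 57164 (37556 to 65532), so the GHR+/+ mice lay inside the wider GHR-/- range, and the log2 difference was 0.21 (limma adjusted p = 0.239). H2-K1 had a GHR+/+ median of 54962 (51226 to 60655), H2-D1 of 25642 (21536 to 30682) and Tapbp of 4769.0 (3337.9 to 5672.2), all within or across the GHR-/- ranges given above. B2m averaged 1870 FPKM, H2-K1 497, H2-D1 264 and Tapbp 33.2 in GHR+/+ mice, so that B2m was the most abundant of the 5 members with a value per length. In the endoplasmic reticulum around the peptide-loading complex, the chaperones Canx (0.35 ± 0.083, log2; adjusted p = 0.00937), Pdia3 (0.54 ± 0.13; 0.0104) and Calr (0.67 ± 0.16; 0.0104) were higher in GHR+/+ mice in limma. All 3 serve protein folding in general as well as class I assembly. The GTPase Iigp1 (0.89 ± 0.30; limma adjusted p = 0.0440) and Ifitm3, which blocks viral fusion (0.31 ± 0.098; 0.0377), were higher too, so that 5 of the 32 further pathway genes with counts were higher and 0 lower, where 11.9% of all genes were higher and 12.8% lower.

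Sets for class II presentation and type II interferon were lower in GHR+/+ mice, and no set for type I interferon passed. Of 50 chosen sets, 7 passed with lower values in GHR+/+ mice and 0 with higher values (2.79% and 0.966% of all GO sets). The lowest NES was that of class II processing of exogenous peptide, -2.24 (deposited adjusted p = 0.000423), and 14 of its 19 genes formed the leading edge. Antigen processing and presentation as a whole had -1.88 (0.00251), the response to type II interferon -1.74 (0.00589) and type II interferon production -1.6 (0.0398). The response to type I interferon was on the other side, at 1.36, and did not pass (0.37). These sets share genes, so their scores are not independent, and the class II genes themselves are in most of them.

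**Figure D4:**
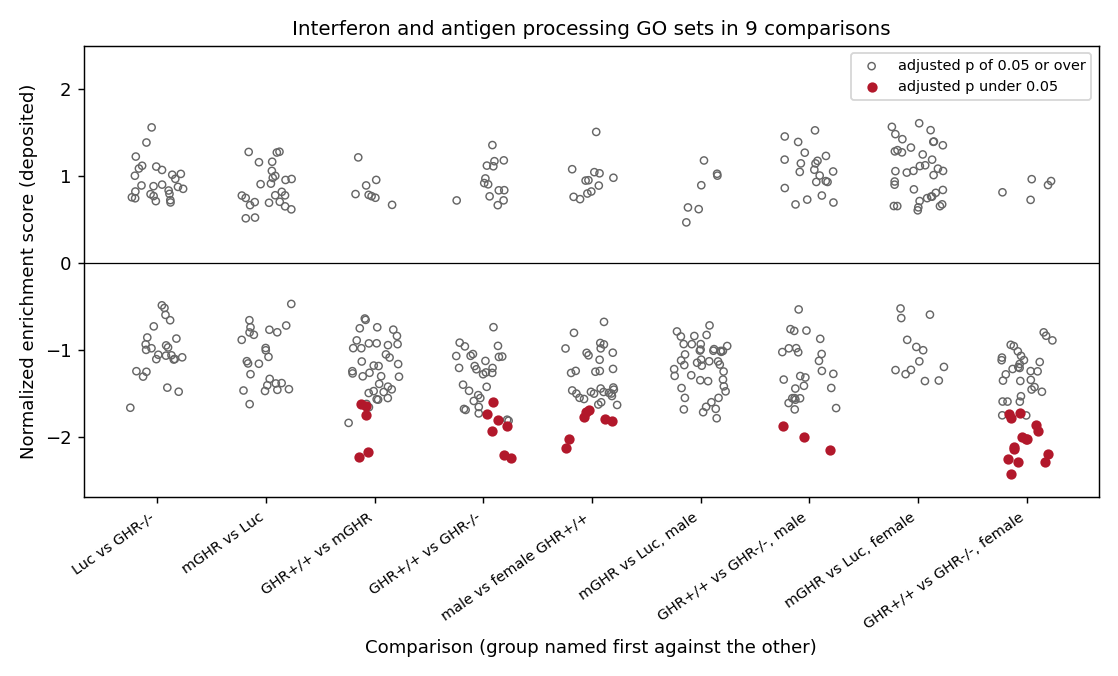
Normalized enrichment scores of the chosen interferon and antigen processing sets in the 9 comparisons (1 point per set; red filled, deposited adjusted p under 0.05). No set passed in AAV-HLP-Luc against GHR-/- or in AAV-HLP-mGHR versus AAV-HLP-Luc, pooled or by sex, and every set that passed elsewhere had a negative score, down to -2.43 in GHR+/+ against GHR-/- females. Luc and mGHR stand for AAV-HLP-Luc and AAV-HLP-mGHR.

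The places separated the class II genes from most effectors. All 5 class II genes lay in the lowest 25%, on the GHR-/- side: H2-Ab1 at 90.9% to 98.2%, H2-Aa and H2-Eb1 within 89.9% to 97.5%, Cd74 at 88.0% to 95.4% and the transactivator Ciita at 86.2% to 93.6%. The GTPases Gbp2, at 84.8% to 92.3%, and Igtp, at 76.9% to 84.5%, and the transporter subunit Tap1, at 76.4% to 84.0%, were on that side as well. The effectors were mostly at the other end, 6 of 11 in the highest 25% and 1, Usp18 at 92.1% to 99.5%, in the lowest. Oasl1 lay at 1.31% to 5.13%, Bst2 at 4.82% to 8.87% and Mx2 at 7.27% to 11.5%. The factors Irf7, at 2.88% to 6.74%, and Stat2, at 8.57% to 12.8%, were with them, as was Oas1a, an oligoadenylate synthetase, at 9.34% to 13.6%. Of all genes placed, 20% were in the highest 25% and 17.3% in the lowest. Leading edges gave 6 members on the GHR+/+ side, led by Oas1a (9 sets), Irf7 (8), Ifih1 (5) and Stat2 (3), and 13 on the GHR-/- side, led by Cd74 (12), H2-Ab1 (10), Igtp and Irgm1 (8 each). The background was 9.85% of 477 genes higher and 39.2% lower. Igtp, Bst2 and Oas1a all hold both interferon motifs in the promoters shown above, and Igtp stood on the side opposite to the other two.

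Most markers of dendritic cells and B cells, which make class II molecules, stood on the same side. Between GHR+/+ and GHR-/- mice, 4 of 6 dendritic cell markers, 4 of 4 B cell markers, 5 of 6 general leukocyte markers, 3 of 6 T and natural killer cell markers and 2 of 11 Kupffer cell markers placed were in the lowest 25%. Among them Flt3 and Xcr1 (dendritic cells) lay at 82.4% to 89.9% and 83.5% to 91.0%. Cd79a and Cd79b (B cells) lay at 83.9% to 91.4% and 86.4% to 93.8%. Ptprc (CD45, on leukocytes), at 73.3% to 81.0%, crossed the limit of the lowest 25% and is not counted in it. No dendritic, B, T or general leukocyte marker was in the count table, so their levels per mouse are not given. Their part in the lower class II genes was not tested.

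The sexes gave the same directions for both called members. In males, Cd74 had 2197.8, 3253.1 and 1951.4 normalised counts in the 3 GHR+/+ mice and 5721.4, 5271.9 and 7091.2 in the 3 GHR-/- mice. The groups did not overlap, and the log2 difference was -1.32 ± 0.21 (SE), or 2.5-fold lower (limma adjusted p = 0.0071; 20.1% of all genes passed). In females, Cd74 had 6451.1, 4646.6 and 2890.9 against 9297.7, 15768 and 7022.3, again without overlap, and the difference of -1.20 ± 0.37 did not pass (limma adjusted p = 0.107; 5.71% of all genes passed). For Bst2 the male values were 5435.3, 5127.5 and 4720.9 against 3070.5, 4508.8 and 2952.0, a log2 difference of 0.56 ± 0.18 (limma adjusted p = 0.0696). The female values were 4675.7, 4647.5 and 4749.6 against 3389.9, 3658.1 and 3559.1, a difference of 0.41 ± 0.075, or 1.33-fold (limma adjusted p = 0.0296), a call that was lost without any 1 of the 6 mice (limma adjusted p = 0.0608 to 0.096). Neither sex showed overlap for Bst2. The difference between the sexes had a 95% interval of -0.29 to 0.59 for Bst2 (limma adjusted p = 0.793) and -1.18 to 0.94 for Cd74 (0.935). No member passed this test of the difference, where 0.85% of all genes did.

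More sets passed in females than in males, 15 lower of 50 against 3 lower of 50, with 0 higher in each. A difference between the sexes in the sets was not tested. The backgrounds were 3.63% lower and 0.695% higher in females and 2.13% and 0.704% in males. Class II processing of exogenous peptide was at -2.43 in females (deposited adjusted p = 3.81e-06) and -2.16 in males (0.00175). The response to type II interferon was at -2.20 in females (2.79e-06), and the response to type I interferon at 1.53 in males (0.287). All 5 class II genes lay in the lowest 25% in each sex. Cell markers are given for each sex: in females 11 of 13 Kupffer cell markers and 6 of 6 general leukocyte markers placed were in the lowest 25%, and in males 0 of 9 and 1 of 5. Of all genes placed, 17.6% in females and 17.4% in males were there. By counts, the macrophage genes Cd5l and Csf1r had means of 3871 ± 193 and 2633 ± 85.6 normalised counts (SD, n = 3) in GHR+/+ females and 6434 ± 1270 and 4224 ± 729 in GHR-/- females. The limma differences were -0.71 (adjusted p = 0.0454) and -0.67 (0.0399) in females and 0.30 (0.526) and 0.06 for the same genes in males. In the test of the difference between the sexes, 0 of 8 cell markers with counts passed (limma adjusted p = 0.263 for Cd5l and 0.348 for Csf1r). The part of these cells in the sets and in Cd74 was not tested.

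Leading edges in males put 6 members on the GHR+/+ side, led by Irf7 and Oas1a (10 sets each) and Ifih1 (6), and 12 on the GHR-/- side, led by Cd74 (12), H2-Ab1 (10), H2-Aa and H2-Eb1 (7 each). The background was 17% and 27.3% of 477 genes. In females they put 5 on the GHR+/+ side, led by Oas1a (5) and Stat2 (3), and 13 on the GHR-/- side, led by Cd74 (12), H2-Ab1 (10), Igtp and Irgm1 (8 each), against 2.52% and 44%. In males Iigp1 had the largest called change among the further pathway genes, 13200 ± 1200 normalised counts (SD, n = 3) in GHR+/+ and 5048 ± 1262 in GHR-/- mice, a log2 difference of 1.42 ± 0.21 (limma adjusted p = 0.00509).

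The comparison of GHR+/+ with AAV-HLP-mGHR mice asks how far treated liver still stood from liver with an intact receptor, with age and injection differing as well. It shares the GHR+/+ mice with the comparison above, so the similarity of both is no separate evidence. Bst2 was again called, and was the only 1 of 6 members (11.2% of all genes passed). The GHR+/+ mice, from 4647.5 to 5435.3 normalised counts, were all above the AAV-HLP-mGHR mice, from 2429.3 to 4203.8 (median 3221.5). The log2 difference was 0.62 ± 0.11 (SE; 95% interval 0.38 to 0.85), or 1.53-fold (limma adjusted p = 0.0050). Cd74 ranged from 1951.4 to 6451.1 in GHR+/+ and from 3424.8 to 14718 in AAV-HLP-mGHR mice. These ranges overlapped, and the difference of -0.90 ± 0.37 (-1.70 to -0.10) did not pass (limma adjusted p = 0.125). The Cd74 difference shrank to -0.64 without AAV-HLP-mGHR female 024, and it passed in 0 of 12 fits that left out 1 mouse. B2m, with medians of 61188 (57515 to 62853) and 52304 (47198 to 62441), differed by 0.20 ± 0.07 (limma adjusted p = 0.0933). Without AAV-HLP-mGHR female 024 the B2m difference was 0.25 and passed (limma adjusted p = 0.0234), and the number of genes called over the table went from 223 to 323. Lgals9 (galectin-9) was higher in GHR+/+ mice by 0.36 on the log2 scale (limma adjusted p = 0.0437).

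Of 50 chosen sets, 5 passed with lower values in GHR+/+ than in AAV-HLP-mGHR mice and 0 with higher values (4.35% and 1.78% of all GO sets). They were class II processing of exogenous peptide (NES -2.23, deposited adjusted p = 0.0014), class II peptide or polysaccharide processing (-2.17, 0.00238), type II interferon production (-1.75, 0.00678) and the response (-1.63, 0.0177) and cellular response (-1.64, 0.0181) to type II interferon. The response to interferon-alpha was the highest of all, at 1.22 (0.489). All 5 class II genes lay in the lowest 25%, from Ciita at 88.4% to 95.4% to Cd74 at 83.6% to 90.6%. Of 33 members placed, 6 were in the highest 25% and 7 in the lowest, against 19.7% and 18% of all genes. At the top, Bst2 lay at 0.476% to 4.32%, Oasl1 at 1.29% to 5.22% and Irf7 at 6.42% to 10.9%. Leading edges put 7 members on the GHR+/+ side, led by Oas1a (4 sets), Isg15 (3) and Irf7 (2), and 12 on the AAV-HLP-mGHR side, led by Cd74 (12), H2-Ab1 (10) and Igtp (8), against 9.43% and 44% of 477 genes. Of the markers placed, 4 of 6 for dendritic cells, 3 of 5 for B cells, 3 of 6 for leukocytes in general and 1 of 12 for Kupffer cells were in the lowest 25%, and their part in the class II values was not tested.

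The last comparison, male against female GHR+/+ mice, shows how the members stood between the sexes where the receptor was intact. Tapbp was lower in males, 1 of 6 members where 13.2% of all genes passed. It had 4286.5, 3344.8 and 3337.9 normalised counts in the 3 males and 5672.2, 5251.5 and 5280.8 in the 3 females. The sexes did not overlap, and the log2 difference was -0.57 ± 0.12 (SE; 95% interval -0.85 to -0.29), or 1.49-fold (limma adjusted p = 0.0333). The call was lost without any one of 5 of the 6 mice (limma adjusted p up to 0.11). Cd74 differed by -0.88 ± 0.34 (-1.71 to -0.06), which did not pass (limma adjusted p = 0.143), and the highest male (3253.1) exceeded the lowest female (2890.9). B2m (-0.03), H2-K1 (-0.07) and H2-D1 (-0.02) were close between the sexes, and Bst2 was slightly higher in males (0.12). None of these passed (limma adjusted p = 0.329 to 0.953). H2-T23, a non-classical class I heavy chain, was lower in males by -0.53 (limma adjusted p = 0.0378). The hepatocyte gene Alb (-0.57, adjusted p = 0.0465) and the stellate cell gene Dcn (-0.76, 0.0402) were also lower in males in limma. They were the only 2 called of 8 cell markers with counts, 4 of which are hepatocyte markers. By place, 1 of 3 hepatocyte markers was in the lowest 25% and 1 lay on the male side of the middle. Of 5 stellate cell markers placed, 3 were in the lowest 25%. The part of either cell type in the Tapbp value was not tested.

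By leading edge and place, members from each role stood on the female side. Leading edges held 20 members there and 1, Nlrc5, on the male side, against 29.1% and 10.5% of 477 genes. The female side was led by Cd74 (12 sets), H2-Ab1 and Tap2 (10 each), Igtp and Irf1 (8 each). Of 32 members placed, 20 were in the lowest 25% and 1 in the highest (17.1% and 20% of all genes). They were 2 of 3 transcription factors, 8 of 14 effectors, 3 of 3 GTPases, 5 of 7 class I genes and 2 of 5 class II genes, among them Igtp at 91.9% to 99.6%, Gbp3 at 91.7% to 99.3%, Ifi44 at 91.1% to 98.8% and Tapbp at 89.3% to 96.9%. Of other interferon-stimulated genes placed, 12 of 28 were there as well. Of 50 chosen sets, 7 passed lower in males and 0 higher (4.05% and 1.45% of all GO sets). The processing of endogenous antigen had an NES of -2.13 (deposited adjusted p = 0.00601), with Tapbp, Tap1 and Tap2 in its leading edge. The response to interferon-beta was at -1.80 (0.0448) and the response to type II interferon at -1.70 (0.0168).

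Across the 9 comparisons, 29 of the 38 members were in the leading edge of at least 1 chosen set. Ifi35, Ifi44, Oasl1, Oasl2, Mx1, Mx2, Rsad2, Usp18 and Psmb10 were in none. No set for the defence response to virus is among the chosen sets. Several of these effectors were placed near an end of the ranking through other sets, as given above for Oasl1, Mx2, Rsad2 and Usp18.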

How the data were processed

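Per the labels and the study's methods, the authors made stranded poly(A) libraries, mapped reads to mm39 (GRCm39) with Hisat2 2.0.5, counted them with featureCounts 1.5.0-p3 on Ensembl 107, and ran gene set enrichment on genes ranked after DESeq2 1.32.0. The deposited tables hold, for each set and comparison, an enrichment score and NES, a gene ratio (a fraction), a p-value, an adjusted p-value and the leading edge. These are the authors' own comparisons, and are printed because the members are defined on them. The ranking statistic is not given in the sources used here. Its direction was checked against the counts (Spearman's rho of place with log2 difference, 0.91 to 0.96 over 1522 to 1600 genes).

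Counts and FPKM per mouse, made by the authors, came from tables published with the study, not from the deposited files. In hand were 1999 and 1301 of 56748 genes, abundant ones, and p-values were adjusted over those alone (Benjamini-Hochberg, threshold 0.05). Counts were scaled by size factors (median of ratios) and fitted in R 4.3.3 with voom (prior count 0.5) and limma 3.58.1, each comparison on its own libraries without a sex term, as the study pooled sexes. The fits were tested on simulated counts with 200 changed genes. Other steps used Python 3.11.15, numpy 2.4.6, pandas 2.3.3 and matplotlib 3.10.9. Unused per-sample columns numbered 0.

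Members and lists were chosen with earlier results of these data known. Named are every member with counts, the first 5 members per side by number of sets, the general interferon and antigen sets, the highest and lowest NES, and called pathway genes (at most 5 a comparison). Members named for their place, single markers and further sets were chosen after their values were seen. The search of set names also took in the defence response to virus, but no such set is among the chosen sets. The chosen sets are those with interferon or antigen processing in the name. Alternatives were library totals, limma-trend, a count minimum of 10, one fit over 24 libraries, a sex term, leaving out each mouse, and other choices of sets and leading edges. The recovered ranking, the Hallmark sets and the alternatives within a sex were added after seeing the data.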

Additional observations from a re-analysis of the deposited data

Results flagged for a closer look

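In 3 of 24 groups of 6 mice (6 members in 4 groups), 1 mouse stood apart, with a gap to its nearest neighbour that took more of the range of its group than Dixon's 95% limit for 6 values allows. Chance alone gives this in about 1 in 20 groups. H2-D1 was at 36552 normalised counts and Cd74 at 14718 in AAV-HLP-mGHR female 024, the mouse described above as the highest of its group for 6 of 6 members. Bst2 was at 3711 in AAV-HLP-Luc female 015, where the gap was 0.635 of the range.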

How the results depend on the processing

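No paired analysis was possible because each mouse carries its own animal number and none is shared between groups. Between GHR+/+ and GHR-/- mice, Cd74 (log2 -1.438 to -1.045; limma adjusted p = 0.00559 to 0.0343) and Bst2 (0.439 to 0.562; 0.00106 to 0.0119) passed in 12 of 12 fits that left out 1 mouse, as did Bst2 against AAV-HLP-mGHR (0.539 to 0.697; 0.00187 to 0.0149). The number of members called ranged from 1 to 2 for GHR+/+ against AAV-HLP-mGHR, from 1 to 3 for GHR+/+ against GHR-/- males (3 without GHR-/- male 114, with B2m at 0.563 and Bst2 at 0.757) and from 0 to 1 for male against female GHR+/+ mice. For GHR+/+ against GHR-/- females it was 0 without any 1 of the 6 mice (Bst2 limma adjusted p = 0.0608 to 0.096). Over all alternatives, 86 fitted values changed sign, 0 of them past the threshold in either fit. In 5 the value moved by more than its standard error, each when 1 mouse was left out: Cd74 in AAV-HLP-Luc against GHR-/- males (-0.183 to 0.533) and females (-0.408 to 0.179), H2-K1 (-0.015 to 0.316) and Cd74 (-0.846 to 0.21) in AAV-HLP-mGHR versus AAV-HLP-Luc females, and Tapbp in GHR+/+ against GHR-/- females (-0.059 to 0.203). Summed over the 9 tables, 37 chosen sets passed lower, 17 with sets of at least 50 genes, 14 with interferon in the name and 37 with GO biological process sets alone, and 0 passed higher under each. Members on the higher side alone summed to 66, or 128 over all GO sets, 0 over sets that passed and 33 with at least 3 sets. On the lower side they summed to 99, or 136, 53 and 78. With library totals the share of higher calls moved from 53.4% to 40.6% in GHR+/+ against GHR-/- males and from 55.7% to 34.1% in male against female GHR+/+ mice. The number of members called was the same with library totals in each comparison, and with limma-trend in the 5 comparisons of pooled sexes, where alone it was run. Groups of 3 mice per sex and the 1999 genes in hand limit the precision.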

Other observations

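The 2 Hallmark interferon sets, looked up after the values above were seen, give a summary that GO names do not. The interferon alpha response had a deposited NES of -1.58 (adjusted p = 0.0899) in AAV-HLP-Luc against GHR-/- mice, 1.46 (0.207) in AAV-HLP-mGHR versus AAV-HLP-Luc, 1.79 (0.00946) in GHR+/+ against AAV-HLP-mGHR, 1.54 (0.158) in GHR+/+ against GHR-/- and -1.76 (0.0115) in male against female GHR+/+ mice. With the receptor against luciferase it was 2.07 (0.000297) in females and -1.41 (0.245) in males. The 3 receptor females include mouse 024, the highest of its group for 5 of 6 further interferon-stimulated genes with counts, and its part in the female values was not tested. The interferon gamma response was past the threshold in both sexes in opposite directions, 1.87 (0.000381) in females and -1.86 (0.000398) in males, where the pooled value was -0.95 (0.865). The difference between the sexes was not tested. In AAV-HLP-Luc against GHR-/- mice the interferon gamma response was at 1.27 (0.348), and in male against female GHR+/+ mice at -1.67 (0.0048). In GHR+/+ against GHR-/- mice the interferon alpha response was at 1.73 (0.0421) in males and 1.15 (0.569) in females, and the interferon gamma response at 1.46 (0.204) in males and -1.30 (0.265) in females.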
